A study of Gallus gallus with 24 samples.

Results

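TRAF proteins are adaptors that carry signals from receptors to the kinases that release NF-kB, and the genes described here are 5 of them (TRAF2, TRAF3, TRAF5, TRAF6 and TRAF7) with BIRC2 and MAP3K14. These 7 genes were chosen by symbol from the 25466 genes of the count files. All of them were found, and all were among the 13000 genes that passed the filter on low counts. RNA was sequenced from DF1 cells, a spontaneously immortalised line of chicken embryonic fibroblasts, in 24 libraries of 8 groups with 3 replicates each. Cells with an IRF9 knockdown and mock cells, whose genotype label is wild type, were harvested 0 h, 30 min, 1 h and 6 h after poly(I:C), a double-stranded RNA made to mimic viral RNA. The treatment label names poly(I:C) for all 8 groups, the 0 h groups included. The labels do not say how IRF9 was knocked down or how poly(I:C) reached the cells. The series studies what IRF9, a transcription factor of interferon signalling, does in antiviral immunity, and the comparisons ask how these genes changed with time and whether the knockdown altered them.

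In mammals, most TRAF proteins are ubiquitin ligases that bind the tails of receptors. TRAF6 acts behind Toll-like and interleukin 1 receptors, where the ubiquitin chains it builds recruit the kinase TAK1, while TRAF3 also links RNA sensors to the kinase TBK1 and interferon induction. In resting cells, TRAF2, TRAF3 and the ligase encoded by BIRC2 (cIAP1) form a complex that marks the kinase encoded by MAP3K14 (NIK) for destruction, which keeps the non-canonical NF-kB route off. These roles are known mainly from mammals and describe proteins, whereas the measurements here are of RNA.

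Levels are CPM, the counts scaled to a common library size by the TMM method. They depend on gene length, which was not corrected for, so no level is compared between genes. Counts in genes came to 12174030 to 19974065 per library, and a count of 3 stood for 0.150 to 0.259 CPM. IRF9, listed in RefSeq also as IRF10, checks the labels. In knockdown replicates 1 to 3 it was at 15.7, 16.02 and 21.6 CPM at 0 h, 12.8, 16.1 and 19.0 CPM at 30 min, 12.2, 14.0 and 19.8 CPM at 1 h, and 21.0, 20.8 and 23.2 CPM at 6 h. In mock replicates 1 to 3 it was at 29.1, 27.2 and 26.4 CPM at 0 h, 45.2, 29.8 and 28.7 CPM at 30 min, 25.0, 28.8 and 27.1 CPM at 1 h, and 33.5, 33.0 and 31.9 CPM at 6 h. All 12 knockdown libraries lay below all 12 mock libraries. Averaged over the 4 times, the log2 fold change of IRF9 was -0.79 (standard error, SE, 0.09, adjusted p = 7.67e-05, lower in knockdown cells at all 4 times). Of 15 fibroblast markers, 14 had a median of at least 1 CPM. All 6 muscle markers, 6 of 8 epithelial, 5 of 10 leukocyte, 4 of 8 neural and 2 of 6 endothelial markers had a median under 0.1 CPM, although TUBB3, listed as neural, reached 217 to 538 CPM and CD3E, listed as leukocyte, 7.86 to 26.3 CPM. CD8A was at 0 in all libraries. In bulk RNA, fewer cells of a type and less RNA per cell cannot be told apart. The 4 libraries of mock replicate 2 stood apart from the rest on the first principal component, at 29.5 to 39.8, against -17.8 to 8.58 for the other 20. Several results of TRAF3, TRAF6 and BIRC2, the TRAF7 interaction at 6 h and the correlated genes are also given without them. For TRAF2 and TRAF7 in mock cells at 6 h, only the range over all alternatives is given. Most other values for mock cells, those of the pathway lists among them, include these libraries.

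By 6 h, TRAF7 and TRAF3 rose in both genotypes, TRAF2 rose in mock cells, and BIRC2, TRAF5, TRAF6 and MAP3K14 were not called. In knockdown cells 2 of the 7 genes were called higher at 6 h against 0 h and 0 lower, where 1.72% of all tested genes were called, 1.43% higher and 0.292% lower. In mock cells 3 of 7 were called higher and 0 lower, where 2.17% of all tested genes were called, 1.94% higher and 0.231% lower. With a replicate block within genotypes the count over all genes in mock cells was 699, against 282 without it. Averaged over both genotypes the count was again 3 higher and 0 lower, beside 5.05% of all tested genes, 3.7% higher and 1.35% lower. A gene counts as called at an adjusted p under 0.05 in edgeR. The median log2 change of the 7 genes was 0.17 in knockdown and 0.37 in mock cells, and that of all tested genes 0.01 and -0.00 (-0.00327). No unstimulated 6 h samples were analysed here, so poly(I:C) and time in culture cannot be told apart. The summed level of the 10 leukocyte markers also moved with time, at 26.2 to 29.7 CPM at 6 h against 13.5 to 17.6 CPM at 0 h in knockdown cells, and at 27.1 to 34.0 against 14.0 to 16.2 CPM in mock cells. CD3E made up most of it. The 6 endothelial markers summed to 4.74 to 4.80 CPM at 6 h against 2.37 to 2.74 CPM at 0 h in knockdown cells, and to 4.32 to 6.81 against 2.94 to 3.64 CPM in mock cells. The 8 epithelial markers summed to 12.4 to 12.8 against 8.60 to 9.47 CPM in knockdown cells, and to 9.06 to 12.6 against 8.61 to 9.15 CPM in mock cells. GRHL2 made up most of this epithelial sum, at 6.72 to 12.8 CPM over all libraries. The part of these markers in the results was not tested.

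**Figure D1:**
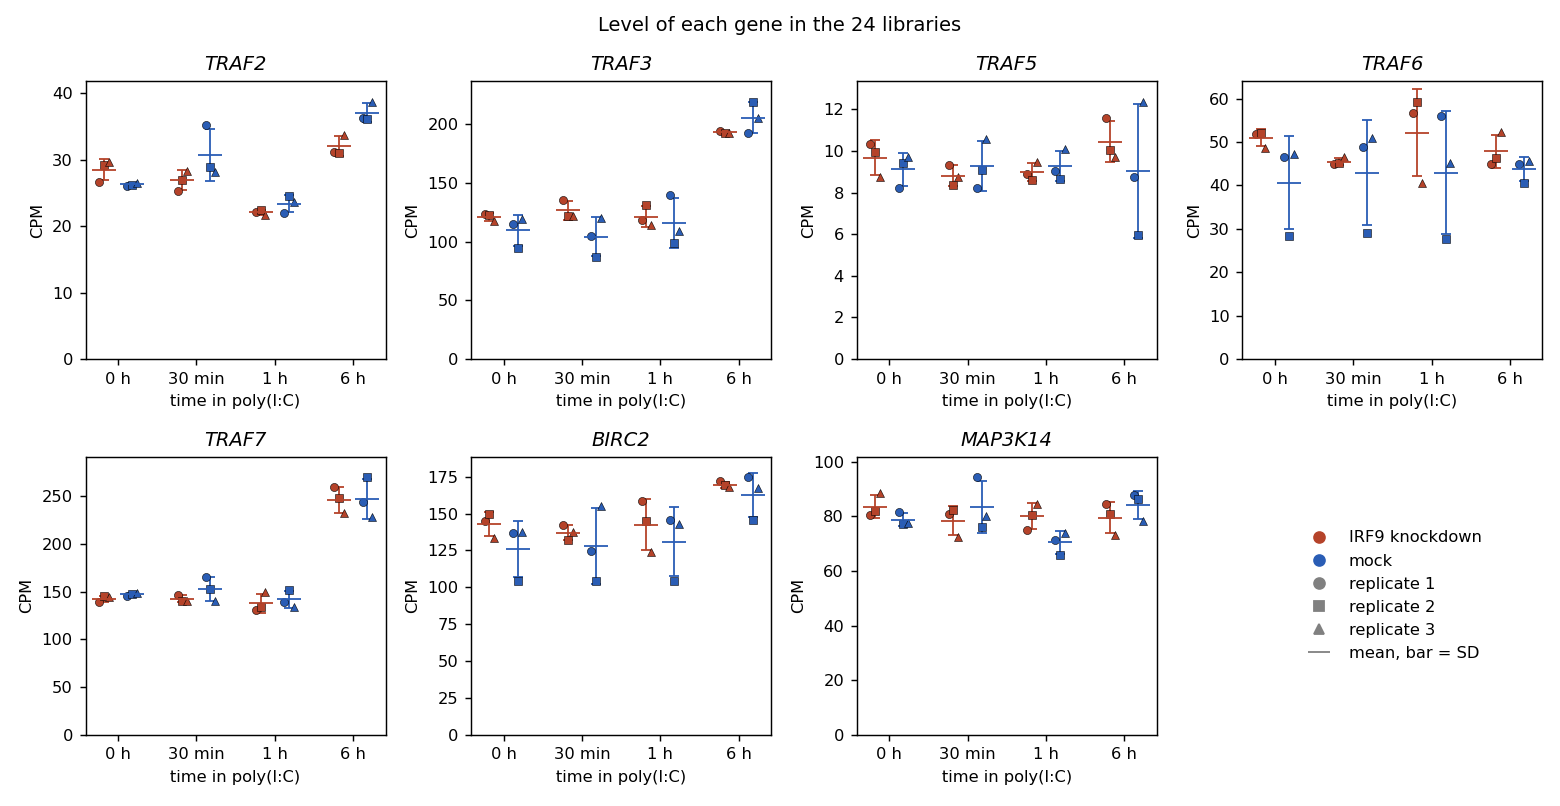
Level of each gene in CPM (vertical axes, from 0) against time in poly(I:C). Points are the 24 libraries, shaped by replicate number, with the mean and SD of 3 libraries, IRF9 knockdown in red on the left of mock in blue. TRAF3 and TRAF7 at 6 h lie above every earlier library of either genotype, at 192 CPM or more and 228 CPM or more, and the squares of mock replicate 2 lie lowest of their groups in the TRAF6 and BIRC2 panels.

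TRAF3, the adaptor shared by receptor, RNA sensor and NIK control, lies on chromosome 5 from 49323443 to 49392830 (gene identifier 423471; this and all positions below are from the RefSeq table of GRCg7b). In knockdown replicates 1 to 3 its level was 124, 123 and 117 CPM at 0 h, 136, 122 and 122 CPM at 30 min, 118, 132 and 114 CPM at 1 h, and 194, 192 and 193 CPM at 6 h. In mock replicates 1 to 3 it was 115, 94.8 and 119 CPM at 0 h, 105, 87.3 and 120.3 CPM at 30 min, 140.2, 98.6 and 109 CPM at 1 h, and 193, 219 and 205 CPM at 6 h. All 6 libraries of 6 h stood above all 18 earlier ones, and the share of all tested genes that did so was not computed. Between 6 h and 0 h alone, libraries did not overlap for 23.7% of all tested genes in knockdown and 13.9% in mock cells. Within each of the 3 earlier times the mock replicate 2 library of TRAF3 was the lowest of its group. The rise at 6 h against 0 h was 0.67 on the log2 scale in knockdown cells (SE 0.12, 95% interval 0.43 to 0.92, adjusted p = 0.00129). In mock cells it was 0.91 (SE 0.12, interval 0.66 to 1.15, adjusted p = 2.69e-05), and 0.77 (SE 0.11, adjusted p = 8.95e-05) without the mock replicate 2 libraries. Averaged over both genotypes, TRAF3 rose by 0.79 (SE 0.08, adjusted p = 3.87e-07), a fold of 1.73. In order of mean level, mock 6 h (206 ± 13.2 CPM; SD, n = 3 here and below) and knockdown 6 h (193 ± 0.930 CPM) led and overlapped each other. After a gap came the 6 earlier groups, each overlapping its neighbour, from knockdown 30 min (127 ± 7.90 CPM) down to mock 30 min (104 ± 16.5 CPM).

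TRAF7 is the atypical member, which carries WD40 repeats in place of the TRAF domain and binds the kinase encoded by MAP3K3 in mammalian cells. It lies on chromosome 14 from 6421689 to 6450335 (gene identifier 416555). In knockdown replicates 1 to 3 it stood at 139, 145 and 144 CPM at 0 h, 147, 141 and 140.2 CPM at 30 min, 131, 133 and 149 CPM at 1 h, and 259, 248 and 232 CPM at 6 h. In mock replicates 1 to 3 it stood at 145, 147 and 149 CPM at 0 h, 165, 153 and 140.3 CPM at 30 min, 139, 152 and 134 CPM at 1 h, and 244, 269.6 and 228 CPM at 6 h. The 6 h libraries again lay above all earlier ones, beside the shares given for TRAF3, and the genotypes overlapped at 6 h. TRAF7 rose by 0.79 in knockdown cells (SE 0.08, interval 0.62 to 0.96, adjusted p = 1.07e-06) and by 0.75 in mock cells (SE 0.08, interval 0.58 to 0.92, adjusted p = 1.9e-06). By p, it ranked 15th of 13000 genes in knockdown cells, 23rd in mock cells and 17th in the average, where it rose by 0.77 (SE 0.06, adjusted p = 1.5e-09). MAP3K3 itself did not pass the test at 6 h, at -0.04 in knockdown and 0.11 in mock cells.

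The annotated span of TRAF7 overlaps that of CASKIN1 by 675 bases and that of the non-coding gene LOC124417205 by 110 bases. Both of these rose at 6 h as well, CASKIN1 by 0.94 (SE 0.19, adjusted p = 0.00249) and LOC124417205 by 0.99 (SE 0.20, adjusted p = 0.00188) in the average of the genotypes. Their counts were low beside the 63079 of TRAF7 over all libraries, at 1079 for CASKIN1 and 3831 for LOC124417205. Libraries were directional, but no source used here states whether the counting used strand, so reads in the shared stretches cannot be assigned with certainty, and their part in the change was not tested.

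TRAF2, which binds the TNF receptor complex and holds BIRC2 in the NIK complex, lies on chromosome 17 from 1205517 to 1224558 (gene identifier 417287). In knockdown replicates 1 to 3 its level was 26.6, 29.2 and 29.6 CPM at 0 h, 25.3, 27.0 and 28.4 CPM at 30 min, 22.2, 22.4 and 21.7 CPM at 1 h, and 31.2, 31.0 and 33.7 CPM at 6 h. In mock replicates 1 to 3 it was 26.1, 26.2 and 26.5 CPM at 0 h, 35.1, 28.9 and 28.1 CPM at 30 min, 22.01, 24.5 and 23.6 CPM at 1 h, and 36.3, 36.1 and 38.7 CPM at 6 h. The 1 h libraries were the lowest and the 6 h libraries the highest of each genotype, and the 6 h libraries of mock cells lay above all 21 others. Libraries of 6 h and 0 h did not overlap for 23.7% of all tested genes in knockdown and 13.9% in mock cells. The shares of all tested genes with these wider orders were not computed. At 6 h TRAF2 rose in mock cells by 0.50 (SE 0.10, interval 0.29 to 0.70, adjusted p = 0.00385) and in the average by 0.33 (SE 0.07, adjusted p = 0.00359). In knockdown cells the value was 0.17 (SE 0.10, interval -0.03 to 0.37, adjusted p = 0.626). The call in mock cells ended in a fit of the 6 libraries alone (0.50, adjusted p = 0.089).

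Whether that difference between genotypes held was tested as an interaction. For TRAF2 at 6 h it was -0.33 (SE 0.14, interval -0.62 to -0.04), with an unadjusted p of 0.0285 in edgeR and an adjusted p of 1.00 (0.999992), so it did not pass. The interaction of TRAF3 was -0.24 (interval -0.58 to 0.11), but -0.14 without mock replicate 2 of 0 h and -0.09 (SE 0.14) without all 4 mock replicate 2 libraries, and that of TRAF7 was 0.04 (interval -0.20 to 0.28), or 0.11 (SE 0.12) without those 4. None of the 7 genes was called for an interaction at 30 min, 1 h or 6 h by edgeR, DESeq2 or limma voom, where 0% of all tested genes were called by edgeR each time. At an unadjusted p under 0.05, edgeR gave 1 of the 7 at 30 min, 0 at 1 h and 1 at 6 h, TRAF2 in both cases, beside 5.77, 1.05 and 1.57% of all tested genes.

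BIRC2, listed in RefSeq also as IAP1 and ITA, encodes the ubiquitin ligase of the NIK complex. It lies on chromosome 1 from 182458433 to 182468555 (gene identifier 374012). In knockdown replicates 1 to 3 its level was 145, 150.02 and 134 CPM at 0 h, 142, 132 and 138 CPM at 30 min, 158, 145 and 124 CPM at 1 h, and 172, 169 and 168 CPM at 6 h. In mock replicates 1 to 3 it was 137, 104 and 137 CPM at 0 h, 125, 104 and 155 CPM at 30 min, 146, 104 and 143 CPM at 1 h, and 175, 146 and 167 CPM at 6 h. Within each genotype the 6 h libraries lay above those of 0 h, where 23.7% of all tested genes in knockdown and 13.9% in mock cells had no overlap either. The mock replicate 2 library was the lowest of its group at all 4 times. BIRC2 was not called at 6 h in knockdown cells (0.25, SE 0.14, adjusted p = 0.577), in mock cells (0.37, SE 0.14, adjusted p = 0.251) or in the average (0.31, SE 0.10, adjusted p = 0.0662). Deviations of same-numbered mock libraries correlated in this comparison (0.279 to 0.481), most for replicate 2. Deviations are from means of 3 libraries, so the shift of replicate 2 also enters those of replicates 1 and 3. The correlations therefore cannot show whether libraries of those numbers were paired. With a replicate block within each genotype BIRC2 was called in mock cells (0.38, adjusted p = 0.00216) and in the average (0.31, adjusted p = 0.00015). Without the mock replicate 2 libraries it was called in the average (0.28, SE 0.07, adjusted p = 0.0121), but not in mock cells (0.32, SE 0.11, adjusted p = 0.218).

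**Figure D2:**
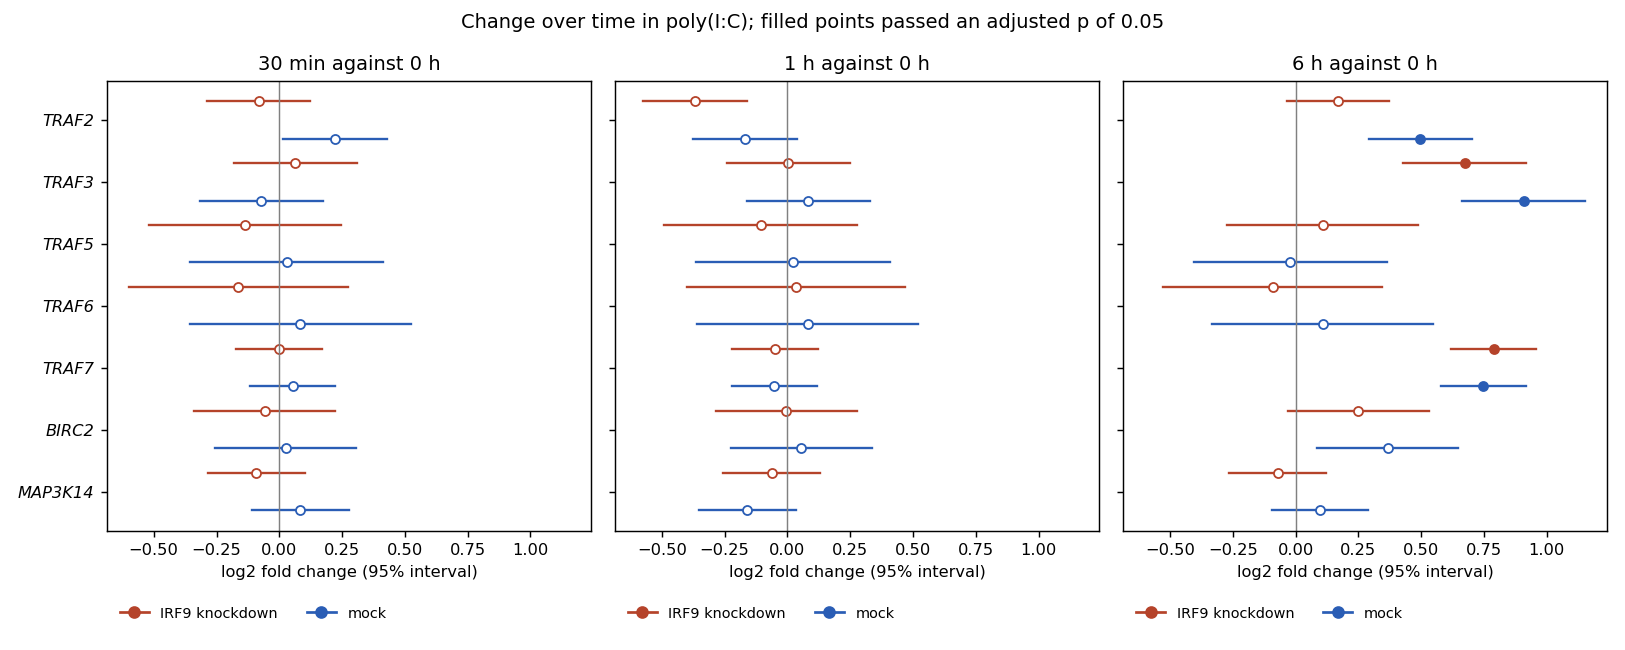
Log2 fold change of each gene at 30 min, 1 h and 6 h against 0 h (horizontal axes) with 95% intervals, IRF9 knockdown in red above mock in blue. Filled points passed an adjusted p of 0.05, which only TRAF3 and TRAF7 in both genotypes and TRAF2 in mock cells did, all at 6 h, and the other intervals at 6 h fall between -0.53 and 0.65.

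MAP3K14, which encodes the kinase NIK that starts the non-canonical route, showed no called change. It lies on chromosome 27 from 1025277 to 1042537 (gene identifier 419964). Its level ran from 72.3 over a median of 80.8 to 88.5 CPM in the knockdown libraries and from 65.9 over 78.0 to 94.3 CPM in the mock libraries. At 6 h against 0 h it was at -0.07 in knockdown cells (interval -0.26 to 0.12) and at 0.10 in mock cells (interval -0.10 to 0.29). The average of 0.01 had an interval of -0.12 to 0.15, which leaves room for a change of up to 1.11-fold upwards. All 8 group means lay within a factor of 1.20, from mock 6 h (84.2 ± 5.09 CPM) to mock 1 h (70.4 ± 4.16 CPM), each overlapping the next. Its span shares 189 bases with FMNL1, which had 42 counts over all libraries.

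TRAF6, the ligase behind Toll-like receptors, lies on chromosome 5 from 19015766 to 19041613 (gene identifier 423163). It ran from 40.6 over a median of 47.6 to 59.3 CPM in the knockdown libraries and from 27.7 over 45.5 to 55.9 CPM in the mock libraries. The lowest 3 mock values, 28.4 CPM at 0 h, 29.1 CPM at 30 min and 27.7 CPM at 1 h, were all replicate 2. At 6 h against 0 h TRAF6 stood at -0.09 in knockdown cells (interval -0.53 to 0.35) and at 0.11 in mock cells (interval -0.33 to 0.55), or -0.05 (SE 0.14) in mock cells without replicate 2. No group mean stood apart from its neighbour in the order of levels. Over all 24 libraries, TRAF6 varied most of the 7 genes between replicates. Its pooled SD was 0.30 (log2), against 0.08 for TRAF2 and TRAF7 and a median of 0.21 over all tested genes. Its largest deviations from a group mean were those of mock replicate 2, at -0.47 at 0 h, -0.51 at 30 min and -0.56 at 1 h. The pooled SD without these libraries was not computed, so the ranking may rest on them. The span of TRAF6 shares 1131 bases with RAG1, which had 21 counts over all libraries.

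TRAF5, a close relative of TRAF2 that binds some of the same receptors, lies on chromosome 3 from 21956247 to 21979263 (gene identifier 374055). It ran from 8.35 over a median of 9.41 to 11.6 CPM in the knockdown libraries and from 5.98 over 9.07 to 12.4 CPM in the mock libraries. The lowest and highest libraries were both mock 6 h, in replicates 2 and 3. At 6 h against 0 h it was at 0.11 in knockdown cells (interval -0.27 to 0.49) and at -0.02 in mock cells (interval -0.41 to 0.36), and its 8 group means overlapped from first to last. The annotated span of RD3 covers all 23017 bases of TRAF5, so reads that the counter could not assign to either may be missing from its counts of 95 to 212 per library.

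None of the 7 genes had a called change at the early times. At 30 min against 0 h, edgeR called none of them in knockdown or mock cells, where 0% of all tested genes were called in each. At 1 h it called none of them in knockdown cells, beside 0.0231% of all tested genes, and none in mock cells, beside 0.0154%. DESeq2 and limma voom also called none of the 7 at either time. At an unadjusted p under 0.05, edgeR gave 0 of 7 at 30 min and 1 of 7 at 1 h in knockdown cells, and 1 and 0 in mock cells, TRAF2 in each case. Of all tested genes, 1.75 and 1.88% did so in knockdown cells and 4.97 and 2.35% in mock cells. TRAF2 was at 77.5% of its 0 h level at 1 h in knockdown cells and at 89.0% in mock cells, and in both genotypes no library of 1 h overlapped one of 0 h, as for 9.32% of all tested genes in knockdown and 5.92% in mock cells. The 1 h and 0 h libraries of mock cells also did not overlap for MAP3K14. Those of 30 min and 0 h did not overlap for TRAF2 in mock cells (6.59% of all tested genes) and for TRAF6 in knockdown cells (9.98%). The average change of TRAF2 at 1 h was -0.27 (SE 0.07, interval -0.41 to -0.12), which ranked 22nd of 13000 genes by p and did not pass the adjustment (adjusted p = 0.569), where 0.0462% of all tested genes were called, 0.0385% higher and 0.00769% lower. Over the other 6 genes, the average change at 1 h lay between -0.11 for MAP3K14 and 0.06 for TRAF6.

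The knockdown of IRF9 came with no called difference in any of the 7 genes. It was partial, with mean IRF9 RNA at 64.5, 46.2, 56.8 and 66.1% of mock at 0 h, 30 min, 1 h and 6 h. IRF9 itself was called only at 30 min and in the average. edgeR called 0 of 7 for knockdown against mock at 0 h, 30 min, 1 h and 6 h and in the average, where it called 0, 0.00769, 0, 0 and 0.00769% of all tested genes. DESeq2 and limma voom called 0 of 7 in each as well. At an unadjusted p under 0.05, edgeR gave 0, 1, 0, 1 and 0 of the 7 in that order, beside 1.51, 13.3, 2.32, 6.15 and 10.8% of all tested genes. These were TRAF3 at 30 min (0.28, SE 0.12, interval 0.04 to 0.52, adjusted p = 0.296) and TRAF2 at 6 h (-0.21, SE 0.10, interval -0.41 to -0.01, adjusted p = 0.777). The TRAF3 value at 30 min was 0.17 (SE 0.12, adjusted p = 0.573) without mock replicate 2 of that time. Libraries of the genotypes did not overlap for 3 genes at 0 h (TRAF2, TRAF6 and TRAF7), beside 9.71% of all tested genes. They did not overlap for TRAF3 at 30 min (11.9% of all tested genes), for MAP3K14 at 1 h (6.45%) and for TRAF2 at 6 h (13.3%).

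Averaged over the 4 times, the difference was 0.21 for TRAF6 (interval -0.01 to 0.42), 0.12 for BIRC2 (-0.03 to 0.26), 0.10 for TRAF3 (-0.02 to 0.22) and 0.04 for TRAF5 (-0.15 to 0.24). It was 0.02 for MAP3K14 (-0.07 to 0.12), -0.05 for TRAF7 (-0.13 to 0.04) and -0.09 for TRAF2 (-0.19 to 0.01). The positive values of TRAF6, BIRC2 and TRAF3 moved with the mock replicate 2 libraries. Without these, TRAF6 stood at 0.03 (SE 0.06), BIRC2 at -0.00 (-0.000763, SE 0.05) and TRAF3 at 0.03 (SE 0.05).

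**Figure D3:**
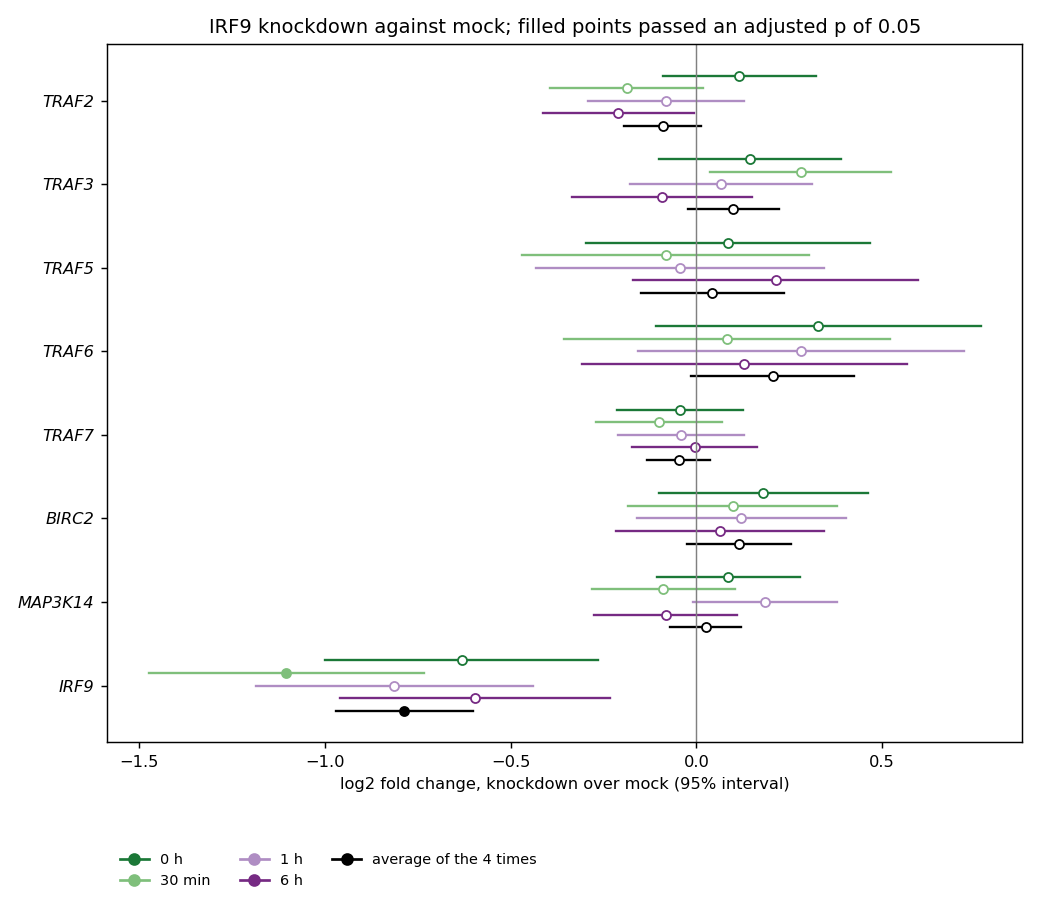
Log2 fold change of knockdown over mock (horizontal axis) with 95% intervals for the 7 genes and for IRF9, per time and as an average. Filled points passed an adjusted p of 0.05, which only IRF9 did, at 30 min and in the average (-0.79), while the averages of the 7 genes lie between -0.09 and 0.21.

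The mock replicate 2 libraries touched these genes unequally. TRAF6 in them stood at 60.7, 58.4, 54.9 and 89.6% of the mean of the other 2 mock libraries at 0 h, 30 min, 1 h and 6 h. BIRC2 stood at 75.8, 74.6, 72.2 and 85.3%, and both genes were lowest of 3 at all 4 times, as were 16.8% of all tested genes. TRAF3 stood at 81.0, 77.5, 79.0 and 110.2%, so its lower start in replicate 2 was followed by the highest 6 h level of the mock libraries. TRAF5 stood at 104.8, 96.7, 90.6 and 56.6%, and its values at 6 h are not given without these libraries. MAP3K14 was at 87.2 to 103.6% and lowest of 3 at 3 of the 4 times. TRAF7 kept to 100.04 to 114% and TRAF2 to 91.4 to 108% across the 4 times. What sets these libraries apart is not given in the labels, and its part in the levels was not tested.

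**Figure D4:**
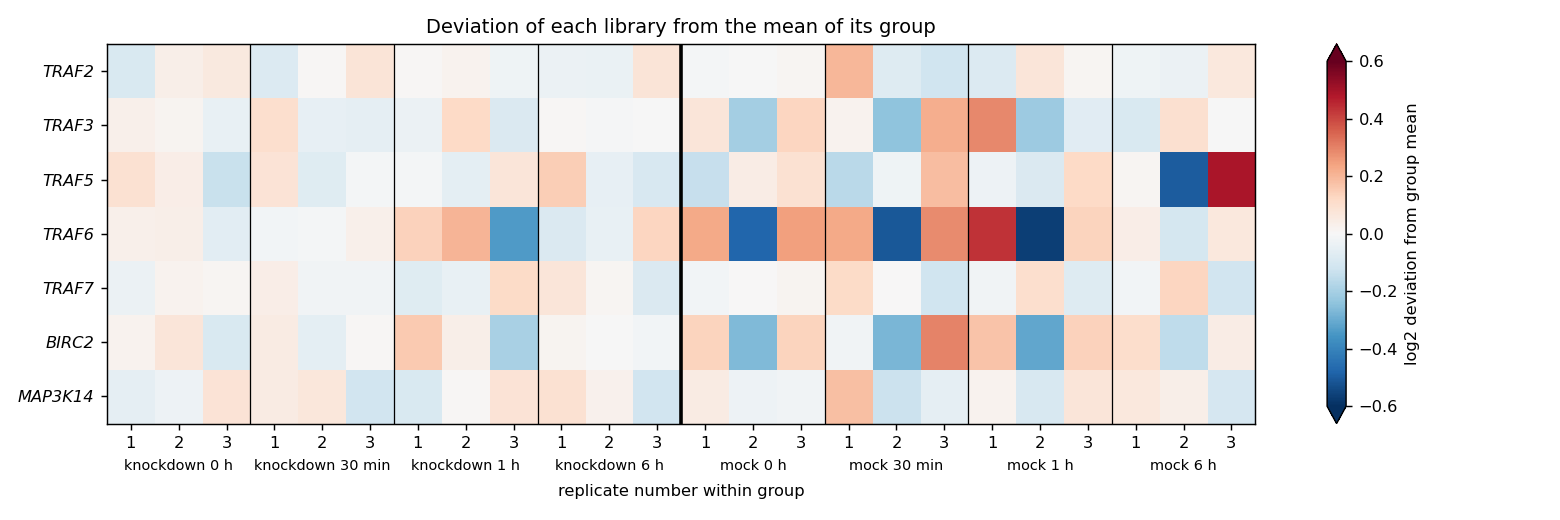
Deviation of each library from the mean of its group on the log2 scale, with 0.5 added to the CPM (colour, red above and blue below), for the 7 genes (rows) in the 24 libraries (columns, by group and replicate). The strongest blue cells of TRAF6, BIRC2 and TRAF3 in mock cells at 0 h, 30 min and 1 h are those of replicate 2, and the TRAF2, TRAF7 and MAP3K14 rows are pale.

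Around these genes, 138 others were listed by role, of which 118 were in the files and 105 were tested. In the average of the genotypes at 6 h, 17 were called higher and 3 lower. These were 16.2 and 2.86% of the 105, beside 3.7 and 1.35% of all tested genes. In knockdown cells the counts were 8 higher and 2 lower (7.62 and 1.90%, beside 1.43 and 0.292% of all tested genes). In mock cells they were 12 higher and 3 lower (11.4 and 2.86%, beside 1.94 and 0.231%). The same shares of all tested genes are the background for the 6 h counts of each list below. For knockdown against mock, edgeR called 0 of the 105 at 0 h, 30 min, 1 h, 6 h and in the average, with 0, 17, 4, 6 and 12 at an unadjusted p under 0.05, where 1.51, 13.3, 2.32, 6.15 and 10.8% of all tested genes were. DESeq2 called 1 at 30 min and 0 in the other 4 comparisons, and limma voom 0 in each. That DESeq2 call and 6 of the 17 were NF-kB subunit, inhibitor and feedback genes (14 tested, median -0.27, against -0.00278 over all tested genes). At an unadjusted p under 0.05, edgeR gave 5 of these 14 for the interaction at 30 min. It gave 5 of 14 for 30 min against 0 h in mock cells and 0 in knockdown cells. Of all tested genes, 5.77, 4.97 and 1.75% did so. After adjustment, edgeR called 0 of the 14 in each. Knockdown against mock at 30 min, the interaction and the change in mock cells share the mock 30 min libraries. They are therefore not separate observations. The count over all genes for knockdown against mock at 30 min was 1, but 758 without mock replicate 3 of that time.

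Of 14 tested inhibitors, subunits and feedback genes of NF-kB, 7 were called higher and 0 lower at 6 h in each genotype, beside 1.43% of all tested genes called higher in knockdown and 1.94% in mock cells. The median of the list was 0.47 in knockdown and 0.55 in mock cells. NFKBIA, which encodes the inhibitor that holds NF-kB in the cytoplasm, stood at 312 ± 21.1 CPM at 6 h against 126 ± 7.02 CPM at 0 h in knockdown cells (1.31, SE 0.10, adjusted p = 1.56e-08) and at 303 ± 23.8 against 121 ± 7.71 CPM in mock cells (1.32, SE 0.10, adjusted p = 6.88e-09). TNIP1, whose protein works with the A20 deubiquitinase, rose by 2.06 (SE 0.17) and 2.04 (SE 0.17) in knockdown and mock cells. The subunit genes NFKB1 and REL rose by 0.52 (SE 0.08) and 0.42 (SE 0.09) in knockdown cells and by 0.58 (SE 0.08) and 0.56 (SE 0.09) in mock cells. NFKB2, whose product is processed in the NIK route, was named after its values were seen, and rose by 0.60 (SE 0.13, adjusted p = 0.00994) in knockdown and by 0.66 (SE 0.13, adjusted p = 0.0027) in mock cells.

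Of 8 tested genes for other TRAF proteins and their partners, 0 were called by edgeR in knockdown cells at 6 h (2 at an unadjusted p under 0.05, 1 called by DESeq2 and 0 by limma voom) and 1 was higher in mock cells. This was TRAF1, which lacks the ligase ring of its relatives and pairs with TRAF2, at 74.4 ± 8.24 CPM at 6 h against 56.9 ± 6.72 CPM at 0 h in knockdown cells (0.39, SE 0.11, adjusted p = 0.0975) and at 82.6 ± 6.203 against 49.7 ± 2.48 CPM in mock cells (0.73, SE 0.11, adjusted p = 0.000219). Of 15 tested receptor genes, edgeR called 1 higher and 1 lower in knockdown cells, and 3 higher and 1 lower in mock cells. DESeq2 called 4 in each genotype, and limma voom 3 in knockdown and 4 in mock cells. At an unadjusted p under 0.05, edgeR gave 7 in knockdown and 6 in mock cells. CD40, a receptor that binds several TRAF proteins, was at 0.55 in knockdown cells (SE 0.15, adjusted p = 0.0626) and rose by 0.58 in mock cells (SE 0.15, adjusted p = 0.0397). IL17RA, a subunit of interleukin 17 receptors, was at 0.28 in knockdown cells (SE 0.08, adjusted p = 0.081) and rose by 0.30 in mock cells (SE 0.08, adjusted p = 0.0453). TNFRSF11B, which encodes a secreted decoy receptor and not a signalling one, rose by 1.37 (SE 0.16) in knockdown and by 1.501 (SE 0.17) in mock cells. EDA2R, a receptor gene of the ectodysplasin family, was lower at 6 h in both, at -0.44 (SE 0.09) in knockdown and -0.54 (SE 0.09) in mock cells.

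**Figure D5:**
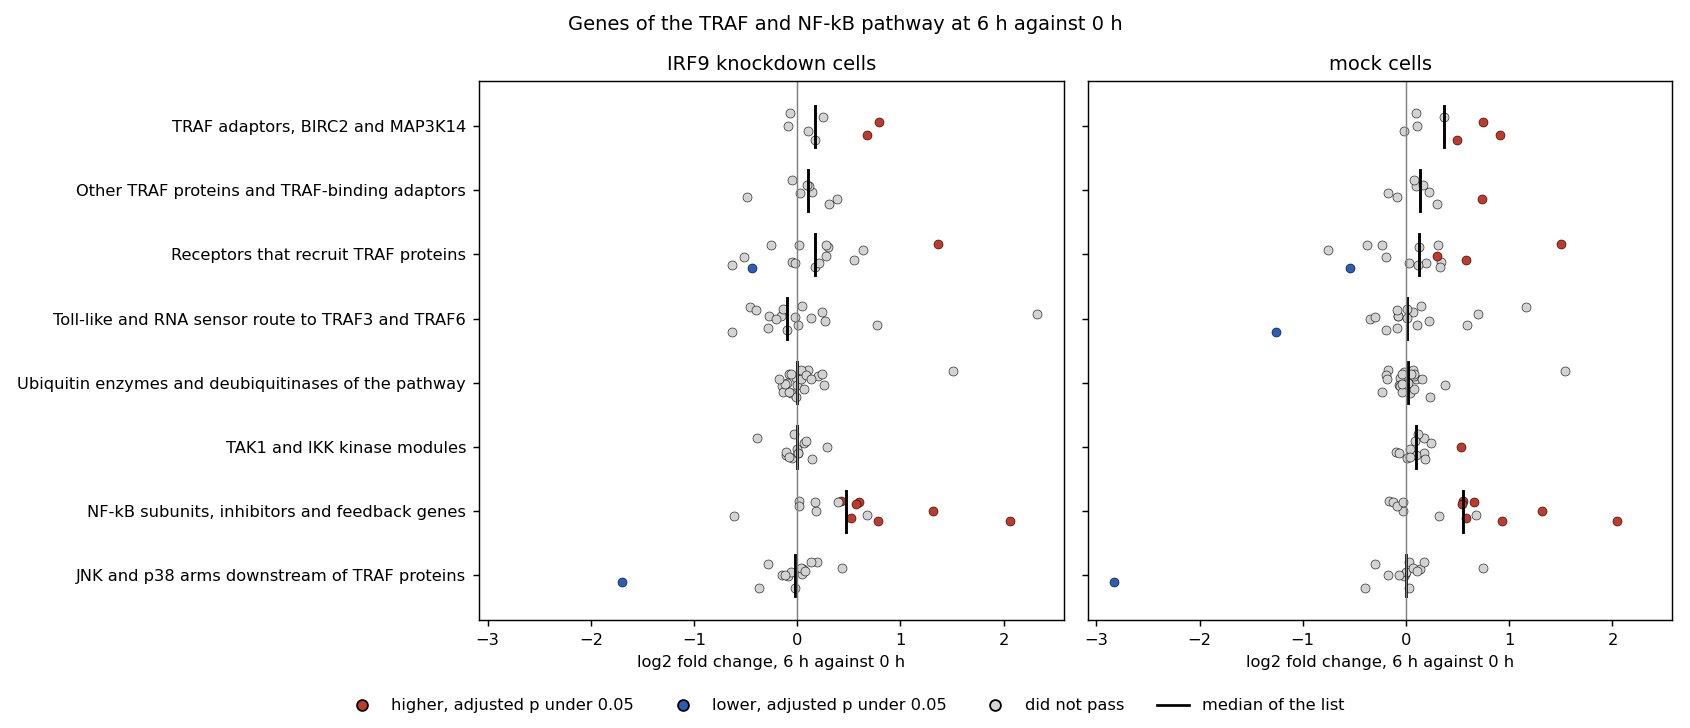
Log2 fold change at 6 h against 0 h (horizontal axes) of the 7 genes and of the tested members of 7 lists of pathway genes (rows), in IRF9 knockdown cells on the left and mock cells on the right. Red and blue points passed an adjusted p of 0.05 as higher or lower, grey ones did not, and black lines are list medians, which reach 0.47 and 0.55 for the NF-kB subunits, inhibitors and feedback genes.

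Of 13 tested genes of the TAK1 and IKK modules, 0 were called in knockdown cells by edgeR, DESeq2 or limma voom (2 at an unadjusted p under 0.05 in edgeR), and MAP3K5, a stress kinase gene, was higher in mock cells (0.28, SE 0.12, adjusted p = 0.364 in knockdown cells, and 0.53, SE 0.12, adjusted p = 0.0124 in mock cells). Of 23 tested ubiquitin enzymes and deubiquitinases, 0 were called by edgeR in either genotype and 2 in the average. In each genotype edgeR gave 2 at an unadjusted p under 0.05 and DESeq2 called 1, and limma voom called 1 in knockdown and 0 in mock cells. The 2 called in the average were TNFAIP3, which encodes the A20 deubiquitinase (1.52, SE 0.30, adjusted p = 0.00188), and CYLD, another deubiquitinase gene (0.32, SE 0.09, adjusted p = 0.0274). TNFAIP3 was low, at a mean of 3.98 CPM at 6 h against 1.38 CPM at 0 h over both genotypes. Of 17 tested genes on the route from Toll-like receptors and RNA sensors, 0 were called in knockdown cells by edgeR, DESeq2 or limma voom, with 3 at an unadjusted p under 0.05 in edgeR. TLR3, which senses double-stranded RNA in endosomes, was at -0.63 in knockdown cells (SE 0.26, adjusted p = 0.344) and fell by 1.26 in mock cells (SE 0.27, adjusted p = 0.00797). Its level in mock cells was low, at 2.55 ± 1.48 CPM at 6 h against 6.27 ± 0.340 CPM at 0 h. IRF7, a transcription factor gene of interferon induction, was called in the average (0.68, SE 0.18, adjusted p = 0.0278). Of 15 tested genes of the JNK and p38 arms, 1 was called in each genotype, MAP2K6, a kinase gene upstream of p38, which was lower at 6 h, at -1.69 (SE 0.35) in knockdown and -2.83 (SE 0.37) in mock cells. MAP2K6 was low at 6 h, at 2.78 ± 0.771 CPM in knockdown and 1.91 ± 0.413 CPM in mock cells. At 0 h it was at 9.07 ± 1.38 and 13.6 ± 4.98 CPM.

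Among 8783 named genes with a mean of at least 5 CPM, the levels most like those of TRAF7 over the 24 libraries were those of TNIP1 (Pearson's r = 0.990 on log2 CPM), LSS, a sterol synthesis gene (0.984), and CCL4, a chemokine gene (0.979). For TRAF3 they were HAS2, a hyaluronan synthase gene (0.968), OGFRL1 (0.964) and INHBA, a subunit gene of activin (0.949). For TRAF2 they were PKD1 (0.889), NFKB2 (0.885) and CD40 (0.884). These values are descriptions over libraries that share their 8 groups, and the contrast of 6 h with the earlier times is part of each. Over the 20 libraries without mock replicate 2, the 3 genes nearest to TRAF2 were again CD40, PKD1 and NFKB2, whereas HELZ2 took a place beside TRAF3 (0.966) and TMEM63B one beside TRAF7 (0.985).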

How the data were processed

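The authors deposited 1 table of raw read counts per gene for each of the 24 libraries, without normalization. The submitters' processing notes name HTSeq 2.0.5, STAR 2.7.11b and build GRCg7b, beside Trim Galore 0.6.10, FastQC 0.12.1 and edgeR 3.40.2. Reads assigned to no gene were 14.6 to 18.8% of each library, ambiguous reads 1.18 to 1.33% and reads not uniquely aligned 3.43 to 4.25%. These lines, 5 per file, stayed out of totals and tests. From the deposited counts, filterByExpr kept 13000 of 25466 genes, and edgeR 4.0.16 (glmQLFit and glmQLFTest, R 4.3.3) fitted 8 group means with TMM scaling over the 24 libraries. The common biological coefficient of variation was 14.0%, on 16 residual degrees of freedom. P-values are two-sided, with Benjamini-Hochberg adjustment across the 13000 genes, and every adjusted p without another tool's name comes from edgeR. CPM values were computed here. The procedure was tested on simulated counts for 6 h against 0 h in mock cells. Of genes given a true log2 change of 0.5 or -0.5, it called 26 and 28%. For 1 and -1 it called 64 and 78%, and of unchanged genes 0.0156%. A gene that was not called may therefore have changed by such amounts, unless its 95% interval leaves them out. For the uncalled genes described above, the intervals at 6 h against 0 h reached neither 1 nor -1. They ran from -0.53 (TRAF6 in knockdown cells) to 0.65 (BIRC2 in mock cells). Those of MAP3K14 also left out 0.5 and -0.5, at -0.26 to 0.12 in knockdown and -0.10 to 0.29 in mock cells. So did those of TRAF5, at -0.27 to 0.49 in knockdown and -0.41 to 0.36 in mock cells. DESeq2 1.42.0 and limma 3.58.1 (voom) were alternatives, with RLE scaling, no filter, replicate blocks, smaller fits and libraries left out.

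The labels do not say that replicates came from separate cultures. The p-values therefore set a difference against the spread among these libraries only, and that spread may be technical. Within groups, no pair of libraries matched within sampling noise (chi-square per degree of freedom 3.08 to 52.8). The pairing by replicate number came from the data: deviations of same-numbered mock libraries correlated at 0.229 to 0.554 in the 3 comparisons with 0 h, each above 0.1. Those of knockdown libraries (0.00255 to 0.21) and of knockdown against mock (-0.189 to 0.202) were not all above 0.1. In mock cells, replicate 2 gave 0.481 to 0.554, and replicates 1 and 3 gave 0.229 to 0.317. Deviations are from means of 3 libraries, so the shift of mock replicate 2 also enters those of replicates 1 and 3. Whether libraries of those numbers were paired is therefore not shown.

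Earlier results of these data were known when the 7 genes, the lists and the naming rule were chosen. The rule names the 7 genes, IRF9 and, per list and comparison, up to 4 called genes with the smallest p. It adds, for each of the 7 called over time, the 3 most correlated genes. MAP3K3, the genes whose spans overlap those of the 7 and some cell type markers were named outside this rule. Gene symbols were matched to the RefSeq table of GRCg7b, 25216 of 25466.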

Additional observations from a re-analysis of the deposited data

How the results depend on the processing

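There were 17 comparisons and 286 pairs of a comparison and an alternative. In each, the number of the 7 genes called stayed within 1.5 times the count reported, and 276 counts were identical. Most pairs set 0 against 0, because genes were called only at 6 h against 0 h. Those comparisons had 14 alternatives in each genotype and 20 in the average, and held every count that changed. Of 2002 values of single genes under the alternatives, 1992 kept their side of the threshold with no called value changing sign. The rest were also at 6 h against 0 h. TRAF3 stayed called at 6 h under all alternatives, at 0.65 to 0.69 in knockdown and 0.77 to 0.97 in mock cells, and TRAF7 at 0.75 to 0.83 and 0.68 to 0.80. TRAF2 at 6 h in mock cells ran from 0.46 to 0.52 and lost its call in the fit of 6 libraries alone. BIRC2 in the average at 6 h (0.25 to 0.34 over the alternatives, adjusted p from 0.00015 to 0.192) was also called by DESeq2 (adjusted p = 0.0418), without the low-count filter (0.0183), in the fit of only the 12 libraries compared (0.0173) and without mock replicate 2 at 6 h (0.0457). In knockdown cells it was called only in the fit of 6 libraries (0.24, adjusted p = 0.0246). The cause was not tested. The IRF9 call at 30 min was lost with limma voom (adjusted p = 0.0502), in the fit of 6 libraries (0.637) and without replicate 1 of mock cells or replicate 1 or 2 of knockdown cells (0.165 to 0.63).

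With the replicate block shared by all groups, BIRC2 was called in the average at 6 h (0.31, adjusted p = 0.0216), and the block changed no other call among the 7 genes beyond those of BIRC2 given with its levels. The count over all genes moved more. At 6 h it was 148 to 699 in mock cells (282 as reported; 699 with the block within genotypes, 187 without mock replicate 2 of 6 h) and 122 to 835 in knockdown cells (224 as reported; 835 in the fit of 6 libraries, 122 to 159 with 1 library left out). In the average of the genotypes it was 656, and 1492 with the block within genotypes. For knockdown against mock at 30 min it was 1, but 758 without mock replicate 3, 195 without the low-count filter and 95 with DESeq2, in none of which a gene of the 7 was called. All 7 genes were detected in every library, with a lowest count of 95 (TRAF5).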
